A study of Mus musculus with 6 samples.

Results

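Liver and splenic invariant natural killer T (iNKT) cells of the mouse were compared gene family by gene family. All cell barcodes of the 2 liver and 2 spleen libraries with 300 to 4000 detected genes and at most 15% of their UMIs in mitochondrial (mt-) genes were used. A UMI (unique molecular identifier) tags 1 captured RNA molecule. Of 11081 barcodes in these 4 libraries the limits kept 11046 cells, namely 2801 and 2861 liver cells and 2729 and 2655 spleen cells, and removed 35. The same limits kept 16532 cells in all 6 libraries of the series. Both groups came from wild-type C57BL/6 mice aged 5 weeks, for which the labels name no treatment, and the labels give no difference between them but the organ. In each, cells carrying CD8 or B220 were depleted with antibodies and beads, and the remainder was sorted for TCR-β and binding of a CD1d tetramer. A library stands for the whole sorted population of an organ, so that subsets of iNKT cells are mixed in it. With 2 libraries per organ, the p-values below measure the spread between these libraries. Sex, batch and the number of mice pooled in a library are not in the labels. The liver and spleen libraries shared 6 to 12 barcodes with each other, at most 0.440% of the smaller library.

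iNKT cells carry a nearly invariant T cell receptor that recognises lipids presented by CD1d, and once mature they release cytokines quickly. In the mouse they are abundant in the liver, where most patrol the sinusoids, while the spleen holds a more mixed population that includes newly arrived cells. T cells spend much of their transcriptome on the translation machinery, whose mRNAs share a 5′ terminal oligopyrimidine (TOP) tract. Their mitochondrial respiratory chain is built from subunits of 2 genomes. Cytokines such as IL-2 and IL-15 signal through Jak kinases and STAT factors, which switch on feedback inhibitors of the SOCS family.

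The liver libraries were deeper than the spleen libraries, with 10870838 and 9011285 UMIs against 5427699 and 5009344, and with a median of 3592 and 2880 UMIs per cell against 1724 and 1554. UMIs were summed per library, and levels are given as counts per 1000000 counts of the library (CPM) after TMM scaling, a normalisation for RNA composition. The defining T cell genes were detected in every library, with Cd3d at 1278 and 1442 CPM in liver and 1672 and 1677 CPM in spleen. Transcripts of hepatocytes made up 0.00213% and 0.00222% of liver UMIs and 0.00118% and 0.000858% of spleen UMIs, and those of neutrophils, B cells and endothelial cells were at or below 0.00115% in all 4 libraries. Alb stood at 0.189 and 0.115 CPM in liver and at 0 in spleen, and Ttr and Serpina1a were at 0 throughout. Others on this list stood higher in liver, such as Apoe at 9.16 and 9.87 CPM against 1.66 and 1.63 CPM in spleen. Apoc1 held 9 and 20 UMIs in liver and 0 and 0 in spleen, while Apoa2 and Trf overlapped between organs. Transcripts of macrophages and dendritic cells made up 0.0172% to 0.0240% in all 4 libraries, but the members of this list differed. Its most abundant member, Cst3, stood at 128 and 150 CPM in liver and 157 and 159 CPM in spleen. Lyz2, Cd68, Cd74, H2-Ab1 and H2-Aa overlapped between organs. Clec4f held 14 and 12 UMIs in liver and 0 and 0 in spleen, and C1qb 11 and 17 against 0 and 0. Haemoglobin and platelet transcripts made up 0.0362% and 0.0583% of liver UMIs and 1.84e-05% and 2.00e-05% of spleen UMIs. Cells with 2 or more UMIs of any such list were 18.6% and 14.5% of liver cells and 5.94% and 5.57% of spleen cells. Each count below was also taken without these cells, and a count of 4 or more that moved by over 1.5 times is given. In summed libraries, fewer cells of a type and less RNA per cell cannot be told apart.

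Of 10314 genes tested with edgeR's quasi-likelihood test, 26.2% were called, that is, had a Benjamini-Hochberg adjusted p below 0.05. Of all genes, 13% were called higher and 13.2% lower in liver. Both liver libraries lay above both spleen libraries for 32.3% of genes and below them for 30.9%. The median log2 fold change of liver over spleen, where 1 is a doubling, was 0.02 over all genes. SE is the standard error of that log2 fold change, and paired values are given as replicate 1 and replicate 2, liver first. These shares are the background for the family counts that follow. The calls depended on the libraries. Without liver replicate 1 the test called 1378 of 10621 genes, 742 higher and 636 lower, and without spleen replicate 2 it called 1415 of 10697 genes, 777 higher and 638 lower, against 2699 with all libraries. The filter on low counts used all 6 libraries, so that a few genes were tested with under 10 UMIs in each liver and spleen library.

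Transcripts of the cytosolic ribosome took up more of the liver transcriptome. The 79 ribosomal protein genes held 34.4% and 31.8% of all UMIs in liver, against 28.0% and 27.3% in spleen. The difference was present in single cells. The median liver cell devoted 34.4% and 31.98% of its UMIs to them and the median splenic cell 27.3% and 26.3%, and the medians were 34.4%, 32%, 27.4% and 26.5% when each cell was thinned to 1000 UMIs, which left 2801 and 2852 liver cells and 2585 and 2486 spleen cells. Of the 79 genes, 42 were called higher and 1 lower in liver, with a median log2 fold change of 0.42, and both liver libraries lay above both spleen libraries for 64 of them. Both subunits took part, with 24 of 47 large subunit genes and 18 of 32 small subunit genes higher.

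**Figure D1:**
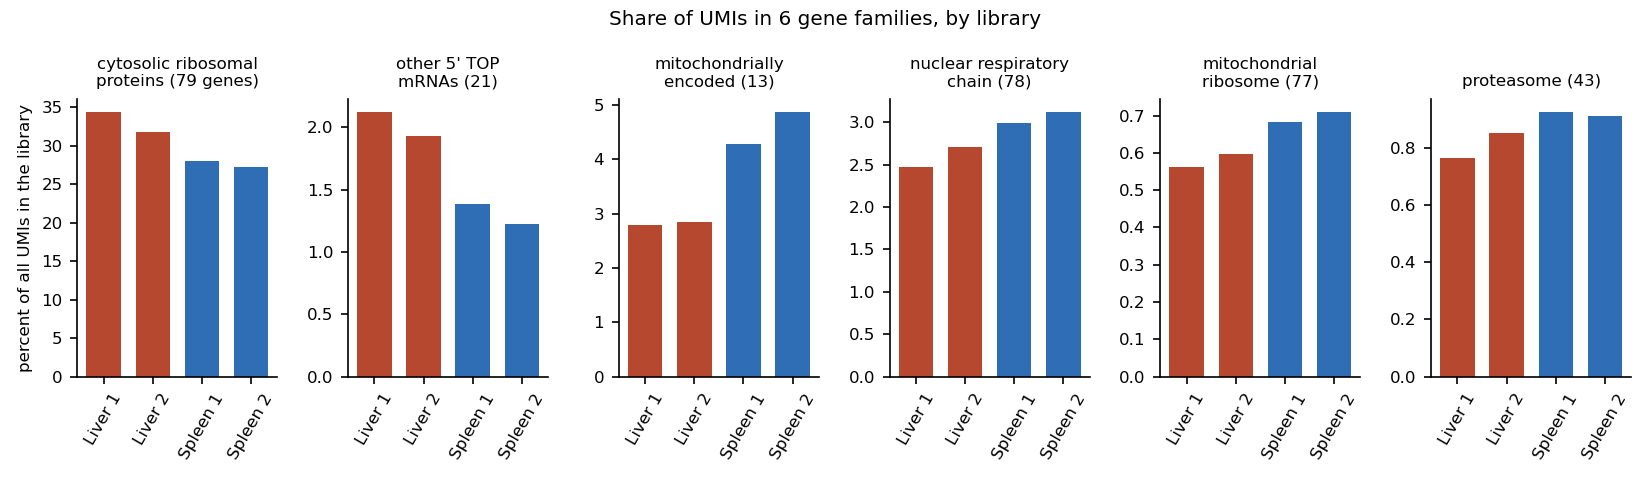
Share of all UMIs of a library (percent, bars from 0) in 6 gene families, 1 bar for each of the 2 liver (red) and 2 spleen (blue) libraries. Ribosomal proteins and the other TOP mRNAs stood higher in both liver libraries, and the 3 mitochondrial families and the proteasome stood lower.

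The ribosomal protein genes that differed most lay on both subunits. Rpl12 (ENSMUSG00000038900, chr2:32961559-32965345), a protein of the large subunit stalk base, stood at 3207 and 2498 CPM in liver and 1482 and 1392 CPM in spleen (log2 fold change 0.99, SE 0.16, edgeR adjusted p = 7.1e-05). Rps12, a small subunit protein, stood at 2735 and 2185 CPM in liver and 1213 and 1300 CPM in spleen (log2 fold change 0.97, SE 0.16, edgeR adjusted p = 6.9e-05). Rpl30, of the large subunit, stood at 2249 and 1785 against 1080 and 1006 CPM (log2 fold change 0.95, SE 0.15, edgeR adjusted p = 3.3e-05). The liver libraries did not overlap the spleen libraries for any of these genes, and liver replicate 1 was the higher liver library each time. Rpl35 went the other way, with 3605 and 3655 CPM in liver and 5571 and 6684 CPM in spleen (log2 fold change -0.76, SE 0.16, edgeR adjusted p = 0.00056), a call that was lost when a library was left out (adjusted p = 0.062 without spleen replicate 2). Many ribosomal protein genes have near-identical copies elsewhere in the genome that can take up reads. The 42 genes with no such copy of their last 300 bases had a median log2 fold change of 0.42 with 23 higher, and the 37 with a copy had 0.42 with 19 higher and 1 lower. The count of higher calls fell when any library was left out, and least without liver replicate 2. The median stayed between 0.40 and 0.50.

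Of 21 other TOP mRNAs tested, 10 were higher and none lower, with a median of 0.22. All 5 elongation factor genes were higher, 1 of 7 initiation factor genes was higher, and 4 of the other 9 genes were higher. Whether these roles differ was not tested. Eef1a1, which delivers aminoacyl-tRNA to the ribosome, stood at 5850 and 4991 CPM in liver and 2505 and 1923 CPM in spleen (log2 fold change 1.29, SE 0.17, edgeR adjusted p = 1.7e-06). Eef2, which moves the ribosome along the mRNA, stood at 1551 and 1397 CPM in liver and 677 and 545 CPM in spleen (log2 fold change 1.27, SE 0.15, edgeR adjusted p = 1.4e-07). In both, the lower liver library was about 2 times the higher spleen library. The exchange factor Eef1b2 stood at 897 and 775 against 499 and 449 CPM (log2 fold change 0.82, SE 0.13, edgeR adjusted p = 3.3e-05), and the scaffold protein gene Gnb2l1 (RACK1) at 1333 and 1047 against 599.6 and 519 CPM (log2 fold change 1.09, SE 0.15, edgeR adjusted p = 1.9e-06). Eif3e, Eif3k, Eif3f and Eif4a2 had log2 fold changes of -0.30, -0.10, 0.05 and 0.07 and were not called. Eif4b, a helicase cofactor of initiation, was higher, at 130.0 and 117 CPM in liver and 68.96 and 55.9 CPM in spleen (log2 fold change 0.99, SE 0.12, edgeR adjusted p = 4.6e-07).

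**Figure D2:**
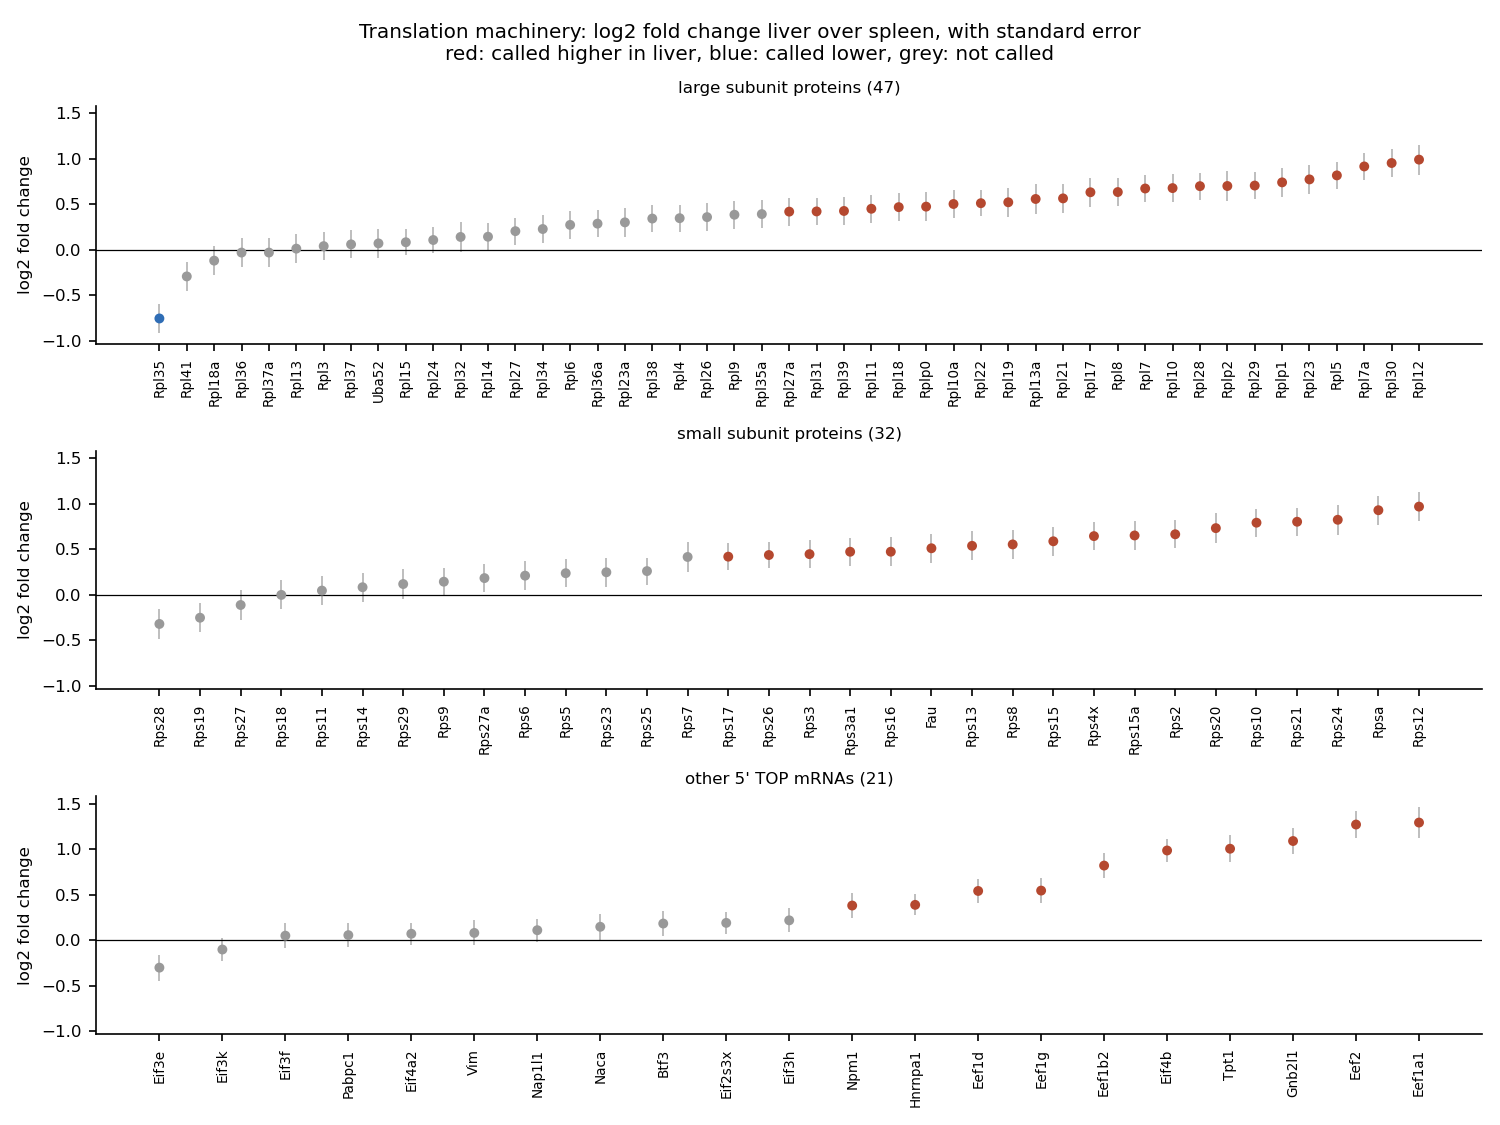
Log2 fold change of liver over spleen with its standard error for each ribosomal protein gene of the large and small subunit and each other TOP mRNA, ordered by size and coloured by call. Most points lie above 0, with a maximum of 0.99 in the ribosome, with Rpl35 alone called lower, and the elongation factors lead the third panel at up to 1.29.

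Many transcripts of the respiratory chain, from both genomes, were lower in liver iNKT cells. The 13 protein genes of mitochondrial DNA held 2.79% and 2.85% of UMIs in liver, against 4.27% and 4.87% in spleen. Of these, 10 were called lower and none higher, with a median log2 fold change of -0.55. Per cell, the median share of mt- UMIs was 2.73% and 2.79% in liver and 4.07% and 4.69% in spleen, and 2.7%, 2.8%, 4.1% and 4.7% at 1000 UMIs per cell. mt-Nd4l, a complex I subunit, stood at 83.1 and 86.5 CPM in liver and 159 and 173 CPM in spleen (log2 fold change -0.97, SE 0.12, edgeR adjusted p = 2.9e-07). mt-Cytb, the complex III subunit, stood at 2927 and 3101 CPM in liver and 4830 and 6018 CPM in spleen (log2 fold change -0.85, SE 0.16, edgeR adjusted p = 0.00018). mt-Atp6, of ATP synthase, stood at 6742 and 7175 CPM in liver and 11844 and 13837 CPM in spleen (log2 fold change -0.88, SE 0.17, edgeR adjusted p = 0.00021). Each liver library was below each spleen library for these genes, and spleen replicate 2 was the highest. The genes did not move alike, since mt-Nd2 (log2 fold change -0.14, SE 0.13) and mt-Nd3 (log2 fold change 0.18, SE 0.11) were not called. When only cells with at most 5% mt- UMIs were used (2760 and 2803 liver cells, 2160 and 1614 spleen cells), 5 of these genes were called lower and 1 higher, and the difference in share was -1.16 percentage points in place of -1.75. Without liver replicate 1, 5 genes were called lower, as were 5 without spleen replicate 2.

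Among the 78 nuclear-encoded subunits, 36 were called lower and 2 higher, with a median log2 fold change of -0.29. Complex I, which takes electrons from NADH, had 23 of 36 subunits lower and none with a fold change above 0. Complex III had 5 of 9 lower, ATP synthase (complex V) 6 of 16 lower and 1 higher, and complex IV 1 of 12 lower. Ndufa12, of complex I, stood at 159 and 184 CPM in liver and 253 and 262 CPM in spleen (log2 fold change -0.59, SE 0.12, edgeR adjusted p = 0.00032). Uqcrb, of complex III, stood at 324 and 513 CPM in liver and 611 and 641 CPM in spleen (log2 fold change -0.58, SE 0.16, edgeR adjusted p = 0.011), with adjusted p = 0.24 without liver replicate 1 and 0.068 without spleen replicate 2. The 2 higher genes were Atp5d of complex V (log2 fold change 0.37, SE 0.12, edgeR adjusted p = 0.026), with adjusted p = 0.086 without liver replicate 1 and 0.26 without spleen replicate 2, and Sdhc of complex II (log2 fold change 0.35, SE 0.13, edgeR adjusted p = 0.047), with adjusted p = 0.17 without liver replicate 2, 0.054 without spleen replicate 1 and 0.24 without spleen replicate 2. Without liver replicate 1 the test called 2 subunits lower and without spleen replicate 2 it called 5, at medians of -0.21 and -0.20.

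**Figure D3:**
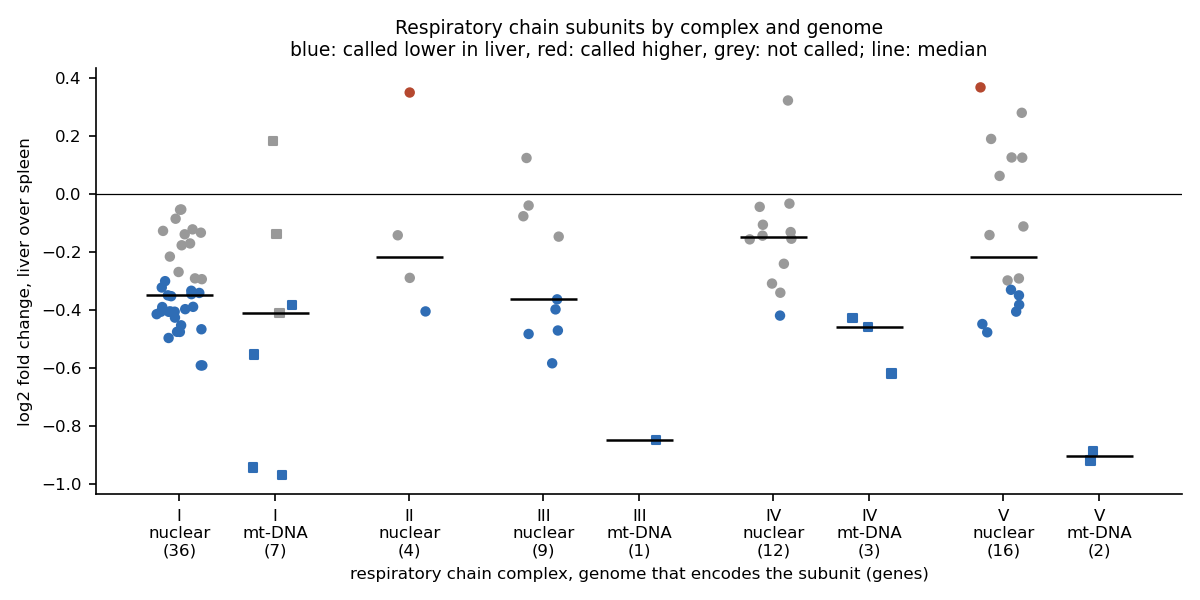
Log2 fold change of liver over spleen for each respiratory chain subunit (points, circles for nuclear and squares for mitochondrial genes), by complex and coding genome, with the median of each group as a line. The medians of all groups drawn lie below 0, from -0.15 in nuclear complex IV to -0.90 in mitochondrial complex V.

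The ribosome inside mitochondria translates the mitochondrial mRNAs. Of its 77 protein genes tested, 27 were lower and 2 higher, with a median of -0.18. Mrpl1 stood at 30.2 and 34.7 CPM in liver and 54.02 and 57.7 CPM in spleen (log2 fold change -0.79, SE 0.13, edgeR adjusted p = 5.5e-05), and Mrps33 at 143 and 152 against 213 and 253 CPM (log2 fold change -0.66, SE 0.12, edgeR adjusted p = 8.5e-05). Mrps6 was higher, at 34.8 and 36.4 against 18.1 and 21.2 CPM (log2 fold change 0.86, SE 0.16, edgeR adjusted p = 0.00016). The 2 higher calls fell to 1 without liver replicate 1 or without spleen replicate 2. The 27 calls fell to 10 without liver replicate 1, to 7 without spleen replicate 2 and to 13 with DESeq2. The 17 tricarboxylic acid cycle genes had a median of 0.01, with 3 higher and 4 lower (2 lower without liver replicate 1 or without spleen replicate 1). Sucla2, which makes succinate from succinyl-CoA, fell (36.9 and 37.9 CPM in liver and 57.7 and 65.3 in spleen, log2 fold change -0.72, SE 0.13, edgeR adjusted p = 0.00015), and citrate synthase, Cs, rose (50.8 and 55.8 against 38.5 and 36.9 CPM, log2 fold change 0.50, SE 0.13, edgeR adjusted p = 0.0065). Of 17 genes of fatty acid oxidation, 2 were higher (1 without any of liver replicate 1, liver replicate 2 and spleen replicate 2, each left out in turn) and 2 lower (0 without liver replicate 1 or without spleen replicate 2).

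A few glycolytic enzymes differed between the organs. Of 19 genes tested, 6 were higher and 1 lower, with a median of 0.12. Gapdh, the dehydrogenase in the middle of the pathway, stood at 772 and 807 CPM in liver and 376 and 332 CPM in spleen (log2 fold change 1.16, SE 0.13, edgeR adjusted p = 1.1e-07). Tpi1, which interconverts the triose phosphates one step earlier, stood at 110.0 and 120.1 CPM in liver and 59.00 and 60.4 CPM in spleen (log2 fold change 0.95, SE 0.12, edgeR adjusted p = 5.0e-07). The liver libraries lay above the spleen libraries for this pair. Gpi1 followed at 281 and 246 against 197 and 169 CPM (log2 fold change 0.53, SE 0.12, edgeR adjusted p = 0.0014). The transporters Slc2a1 (log2 fold change 0.11, SE 0.20) and Slc2a3 (log2 fold change 0.32, SE 0.15) and the terminal enzymes Pkm (log2 fold change 0.12, SE 0.12) and Ldha (log2 fold change 0.01, SE 0.13) were not called. Without spleen replicate 2, 3 genes were called higher, and the lower call was lost without liver replicate 1 or without spleen replicate 2. Gapdh has 4 near-identical copies in the genome and Tpi1 none. Among the genes induced by hypoxia, 1 of 15 was higher (0 without liver replicate 2 or without spleen replicate 2) and 1 lower (0 without spleen replicate 2).

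Several chaperones, which fold new proteins and respond to heat, were higher in liver. The list is mainly cytosolic, with Hspa9, Hspd1 and Hspe1 of mitochondria and Dnajb11 of the endoplasmic reticulum. Of 27 tested, 11 were higher and 1 lower (0 without either liver replicate or without spleen replicate 2), with a median of 0.25. The inducible Hsp70 genes differed most. Hspa1a (ENSMUSG00000091971, chr17:34969190-34972156) held 465 UMIs over both liver libraries and 3 over both spleen libraries, a ratio of 81.4 after division by library totals, with an exact 95% counting interval of 27.7 to 396. Hspa1b (ENSMUSG00000090877, chr17:34956436-34959238) held 544 against 7 UMIs, a ratio of 40.8 (19.7 to 102). Per library, these were 21.7 and 26.97 CPM against 0.369 and 0.204 CPM for Hspa1a (edgeR adjusted p = 4.3e-14) and 27.3 and 29.3 CPM against 1.29 and 0 CPM for Hspa1b (edgeR adjusted p = 3.2e-07), so that the organs were far apart in both replicates. The constitutive Hspa8 stood at 1819 and 2039 CPM in liver and 1102 and 888 CPM in spleen (log2 fold change 0.96, SE 0.14, edgeR adjusted p = 1.1e-05), Hsp90ab1 at 1229 and 1301 against 694 and 669.7 CPM (log2 fold change 0.89, SE 0.13, edgeR adjusted p = 9.8e-06) and the cochaperone Hsph1 at 34.8 and 42.6 against 17.9 and 16.1 CPM (log2 fold change 1.18, SE 0.16, edgeR adjusted p = 2.3e-06). On the endoplasmic reticulum stress list, 1 of 13 chaperones was higher (Calr, log2 fold change 0.79, SE 0.13) and 4 were lower, among them Pdia4, a disulfide isomerase, at 67.4 and 97.6 against 142 and 145 CPM (log2 fold change -0.80, SE 0.13, edgeR adjusted p = 7.3e-05). The BiP gene Hspa5 stood at 224 and 332 against 399 and 369 CPM (log2 fold change -0.47, SE 0.14, edgeR adjusted p = 0.019), with adjusted p = 0.38 without liver replicate 1 and 0.11 without spleen replicate 1. Over the 18 genes of the endoplasmic reticulum stress list, 4 were called lower with all libraries, 1 without liver replicate 1, and 2 without spleen replicate 1 or without spleen replicate 2.

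The promoter of Hspa1a is shown because it carries the letters to which heat shock factors are known to bind, and because this gene and Hspa1b had the largest fold changes of the chaperones with all libraries. The intervals of their ratios overlap, and without spleen replicate 1 Hspa1b had the larger fold change. RefSeq promoter windows (GRCm38.p6, 250 bases before to 50 after the start) were searched on both strands for GAANNTTC. It occurred in 6.86% of 7841 tested genes with a window, in 8 of 20 chaperones (40%), in 5 of the 8 that were higher in liver and in 3 of the 12 that were not. The window below is chr17:34972157-34972306 on the minus strand, 150 bases up to the start, with the match in capitals. That of Hspa1b (chr17:34959239-34959388) differed from it at 1 base (99.3% identity). A match of these letters is a description of the sequence and not evidence of a site in use.
Hspa1a: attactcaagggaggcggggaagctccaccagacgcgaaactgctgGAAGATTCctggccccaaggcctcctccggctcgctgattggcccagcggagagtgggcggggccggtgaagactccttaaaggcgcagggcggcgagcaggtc

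Of 41 genes of the proteasome, which degrades proteins, 8 were lower and none higher, with a median of -0.15. That share of lower calls is near the 13.2% of all genes. Psmb2, of the catalytic core, stood at 229 and 286 CPM in liver and 373 and 423 CPM in spleen (log2 fold change -0.63, SE 0.13, edgeR adjusted p = 0.00037). Without liver replicate 1 there were 3 lower genes, without spleen replicate 1 there were 5 and without spleen replicate 2 there were 3. The subunits that interferon induces, Psmb8 (log2 fold change -0.05, SE 0.13), Psmb9 (log2 fold change 0.27, SE 0.12) and Psmb10 (log2 fold change -0.02, SE 0.12), were not called.

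Several genes of cytotoxic granules, 3 granzymes among them, were higher in liver. Of 16 genes of cytotoxic granules, 8 were higher and 2 lower, with a median of 0.35. Gzmb, a serine protease that starts apoptosis in target cells, stood at 107 and 148 CPM in liver and 8.11 and 4.28 CPM in spleen (log2 fold change 4.34, SE 0.22, edgeR adjusted p = 6.6e-11). Gzma stood at 34.6 and 45.2 CPM in liver and 11.6 and 12.9 CPM in spleen (log2 fold change 1.70, SE 0.19, edgeR adjusted p = 6.5e-08), and Gzmc at 9.82 and 9.87 against 0.922 and 1.43 CPM (log2 fold change 3.06, SE 0.38, edgeR adjusted p = 3.5e-07). All 3 were higher in both liver libraries, and liver replicate 2 was the highest. Perforin, Prf1, which opens the target membrane, stood at 3.49 and 2.53 CPM in liver and 5.35 and 4.49 in spleen and was not called (log2 fold change -0.70, SE 0.34, edgeR adjusted p = 0.14). Serpinb9, which protects cytotoxic cells from granzyme B, rose (47.5 and 53.5 CPM in liver and 29.5 and 24.9 CPM in spleen, log2 fold change 0.89, SE 0.15, edgeR adjusted p = 3.1e-05), as did the granule protease Ctsw (log2 fold change 0.75, SE 0.14) and Rab27a (log2 fold change 0.80, SE 0.15), needed for granule release. Ctsc, which activates granzymes by cleavage, fell (45.3 and 54.5 against 90.5 and 75.1 CPM, log2 fold change -0.73, SE 0.13, edgeR adjusted p = 0.00010).

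Of 17 NK receptors of the lectin family and their adaptors, 8 were higher and none lower, with a median of 0.70. Klrb1c (NK1.1) stood at 250.1 and 272 CPM in liver and 162 and 150.1 CPM in spleen (log2 fold change 0.74, SE 0.12, edgeR adjusted p = 1.6e-05). Klrc1 (NKG2A) stood at 208 and 234 against 121 and 122 CPM (log2 fold change 0.86, SE 0.12, edgeR adjusted p = 1.5e-06), while its partner Klrd1 (CD94) overlapped between organs at 273 and 328 against 263 and 285 CPM. Klre1, a related receptor, stood at 92.9 and 114 CPM in liver and 41.5 and 38.3 CPM in spleen (log2 fold change 1.37, SE 0.13, edgeR adjusted p = 3.1e-09). The signalling adaptor Tyrobp (DAP12) rose (22.2 and 32.5 against 10.5 and 8.98 CPM, log2 fold change 1.48, SE 0.22, edgeR adjusted p = 1.4e-05), while Hcst (DAP10) did not pass the test (log2 fold change -0.13, SE 0.13). Among 3 tested markers of NK cells and ILC1, Ncr1, Tyrobp and Gzma, all were higher, Ncr1 with a call that was lost when a library was left out (log2 fold change 1.37, SE 0.49, edgeR adjusted p = 0.037; adjusted p = 0.38 without liver replicate 2, 0.12 without spleen replicate 1 and 0.14 without spleen replicate 2). Their list held 0.00591% and 0.00807% of liver UMIs and 0.00249% and 0.00246% of spleen UMIs. The NK cell factor Eomes was at 0 CPM in liver and 0.369 and 0.204 CPM in spleen. The part of such cells in these differences was not tested. The 6 Ly49 receptors tested gave 1 higher (Klra5, log2 fold change 1.59, SE 0.30) and 1 lower (Klra3, log2 fold change -1.01, SE 0.17). The Gimap GTPases, survival factors of resting lymphocytes, gave 3 of 8 higher, led by Gimap3 at 843 and 859 against 491 and 460.2 CPM (log2 fold change 0.84, SE 0.12, edgeR adjusted p = 7.4e-06).

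Receptors for cytokines differed in both directions. Of 24 tested, 8 were higher and 6 lower. Il2rb (ENSMUSG00000068227, chr15:78479256-78495271), the chain that IL-2 and IL-15 share, stood at 493 and 534 CPM in liver and 196 and 150.3 CPM in spleen (log2 fold change 1.57, SE 0.13, edgeR adjusted p = 5.6e-11). Il2ra (CD25), the high-affinity chain for IL-2, stood at 38.4 and 39.4 against 11.8 and 12.6 CPM (log2 fold change 1.67, SE 0.17, edgeR adjusted p = 6.6e-09) and Il4ra, for IL-4, at 39.00 and 41.7 against 16.6 and 14.7 CPM (log2 fold change 1.36, SE 0.16, edgeR adjusted p = 1.6e-07). For these 3 genes each liver library was over 2 times each spleen library. Il2ra also marks regulatory T cells. Of the other 2 markers on that list, Foxp3 was at 0 CPM in all 4 libraries, and Ctla4 was higher, at 3.31 and 3.33 CPM in liver and 0.553 and 1.22 CPM in spleen (log2 fold change 1.90, SE 0.49, edgeR adjusted p = 0.0046), with adjusted p = 0.085 without spleen replicate 1. The part of such cells in these differences was not tested. Ifngr1, the ligand-binding chain for interferon-γ, rose (328 and 353 against 114 and 125 CPM, log2 fold change 1.51, SE 0.13, edgeR adjusted p = 1.7e-10), while Ifngr2, its signalling chain, fell (1.70 and 2.53 against 5.16 and 7.75 CPM, log2 fold change -1.61, SE 0.33, edgeR adjusted p = 0.00043). The IL-7 receptor gene Il7r (ENSMUSG00000003882, chr15:9505788-9530176) fell, at 183 and 184 CPM in liver and 428 and 372 CPM in spleen (log2 fold change -1.12, SE 0.13, edgeR adjusted p = 6.2e-08). Il6ra (2.74 and 2.98 against 16.8 and 13.3 CPM, log2 fold change -2.39, SE 0.24, edgeR adjusted p = 4.7e-09) and Il18r1 (78.8 and 96.2 against 140.1 and 136 CPM, log2 fold change -0.66, SE 0.12, edgeR adjusted p = 0.00017) were lower as well. The common γ chain Il2rg stood at 288 and 317 CPM in liver and 329 and 329 CPM in spleen and was not called (log2 fold change -0.12, SE 0.12, edgeR adjusted p = 0.48).

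Several feedback and other genes of Jak and STAT signalling were higher in liver, with 10 of 26 called higher, none lower and a median of 0.46. Socs2 (ENSMUSG00000020027, chr10:95385362-95417180) stood at 178 and 163 CPM in liver and 41.9 and 44.7 CPM in spleen (log2 fold change 1.98, SE 0.12, edgeR adjusted p = 7.4e-14). Cish, a SOCS family member induced by STAT5, stood at 64.7 and 50.4 CPM in liver and 18.4 and 14.3 CPM in spleen (log2 fold change 1.81, SE 0.16, edgeR adjusted p = 6.8e-10). Pim1, a kinase that the same pathway induces, stood at 202 and 219 CPM in liver and 108 and 87.7 CPM in spleen (log2 fold change 1.10, SE 0.13, edgeR adjusted p = 1.0e-07). None of these overlapped between organs. Socs1 (log2 fold change 0.71, SE 0.12), Pim2 (log2 fold change 0.83, SE 0.19) and Stat3 (log2 fold change 0.65, SE 0.13) rose by less. Stat5a (log2 fold change 0.46, SE 0.20), Stat5b (log2 fold change 0.20, SE 0.18) and Jak1 (log2 fold change 0.24, SE 0.11) were not called.

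The start of Cish is shown because it holds 2 copies of TTCNNNGAA, the palindrome to which STAT dimers are known to bind, side by side at the start site itself. The window is chr9:107296559-107296683 on the plus strand, 100 bases before to 25 after the RefSeq start, and the matches are in capitals. Of 7841 windows 8.39% hold these letters. Among feedback genes with a window, 2 of the 9 that were higher in liver hold them and 0 of the 11 that were not. A match of these letters is not evidence of a site in use. The 2 of 20 feedback genes (10%, near the share of all windows) are Cish and Socs3. Both were called higher in liver, Socs3 at 17.2 and 15.8 CPM against 10.9 and 9.18 CPM (log2 fold change 0.72, SE 0.21, edgeR adjusted p = 0.0098), with adjusted p = 0.073 without liver replicate 1 and 0.094 without spleen replicate 2.
Cish: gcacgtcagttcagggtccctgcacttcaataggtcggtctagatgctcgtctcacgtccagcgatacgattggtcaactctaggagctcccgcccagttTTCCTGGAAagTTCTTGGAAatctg

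**Figure D4:**
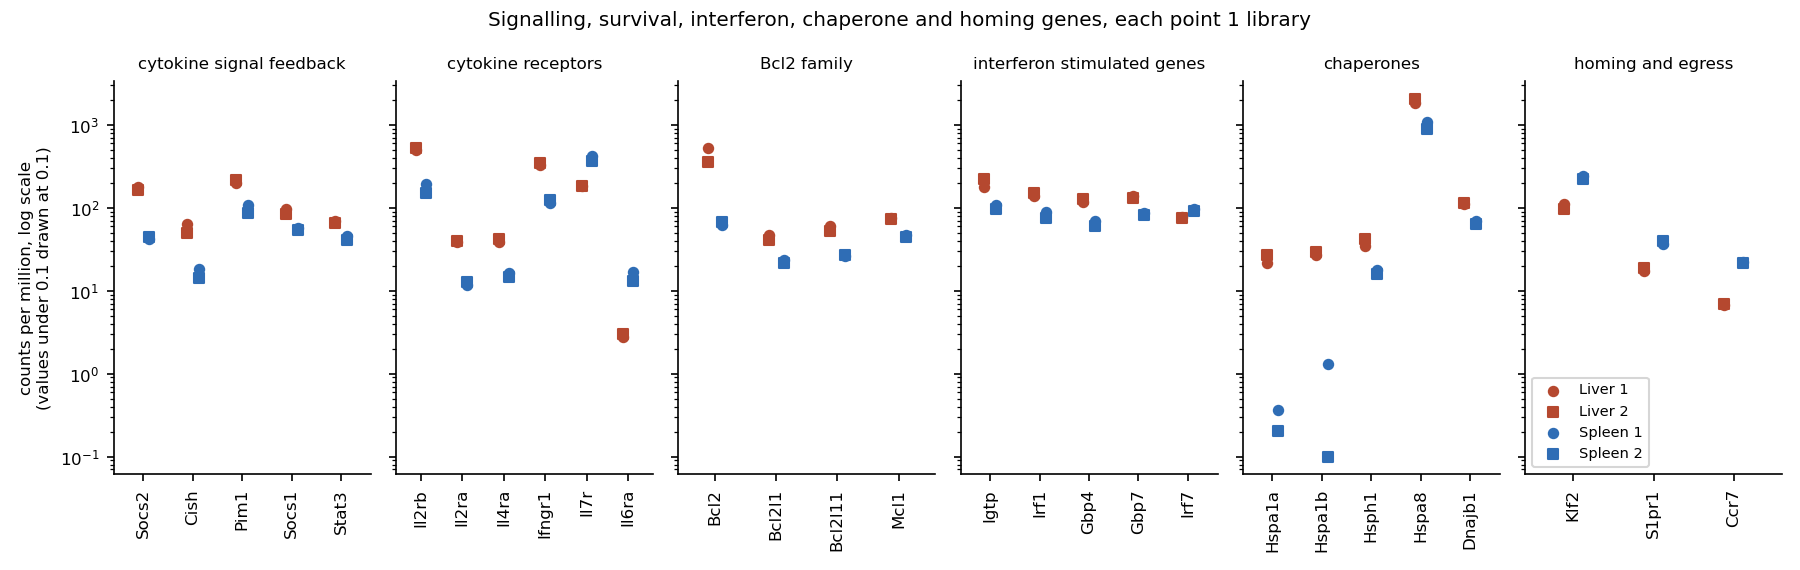
CPM (log axis, values under 0.1 drawn at 0.1) of single genes in 6 families, with circles for replicate 1 and squares for replicate 2 of liver (red) and spleen (blue). Replicates lie close together beside the distance between organs for genes such as Socs2 (178 and 163 against 41.9 and 44.7 CPM), and the homing genes drawn and Il7r are lower in liver.

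Many interferon-stimulated genes were higher in liver. Of 39 tested, 16 were higher and 1 lower (0 without liver replicate 1 or without spleen replicate 2, 3 without liver replicate 2), with a median of 0.26. The type II list gave 9 of 12 higher with a median of 0.63, and the type I list 7 of 27 higher and 1 lower with a median of 0.17. Whether the 2 lists differ was not tested. Igtp (ENSMUSG00000078853, chr11:58199556-58207591), a GTPase of cell-autonomous defence, stood at 177 and 222 CPM in liver and 107 and 96.3 CPM in spleen (log2 fold change 0.97, SE 0.12, edgeR adjusted p = 5.7e-07). Irf1, a transcription factor that interferon-γ induces, stood at 140.1 and 153 CPM in liver and 89.1 and 76.5 CPM in spleen (log2 fold change 0.82, SE 0.13, edgeR adjusted p = 2.6e-05). Gbp4, a guanylate-binding protein, stood at 118 and 129 CPM in liver and 68.96 and 60.6 CPM in spleen (log2 fold change 0.92, SE 0.12, edgeR adjusted p = 8.1e-07). Every liver library exceeded every spleen library for these genes, with liver replicate 2 on top. Of the cytokine and chemokine genes (5 of 17 higher and 3 lower, 3 higher without spleen replicate 2, and 1 lower without liver replicate 1 or without spleen replicate 2), Cxcl10, which interferon-γ induces, stood at 34.3 and 43.7 CPM in liver and 5.35 and 8.77 CPM in spleen (log2 fold change 2.47, SE 0.21, edgeR adjusted p = 1.6e-10). Of classical type I genes, Mx1 rose (9.16 and 7.81 against 2.21 and 3.06 CPM, log2 fold change 1.69, SE 0.34, edgeR adjusted p = 0.00034), Ifit1 (log2 fold change -0.34, SE 0.30) and Ifit3 (log2 fold change -0.18, SE 0.51) were not called, and Irf7 was lower (log2 fold change -0.32, SE 0.12, edgeR adjusted p = 0.038; adjusted p = 0.12 without liver replicate 1, 0.13 without liver replicate 2, 0.20 without spleen replicate 1 and 0.12 without spleen replicate 2). The gene of interferon-γ itself, Ifng, stood at 70.3 and 111 CPM in liver and 52.2 and 40.6 CPM in spleen (log2 fold change 0.96, SE 0.23, edgeR adjusted p = 0.017), with adjusted p = 0.057 without spleen replicate 2.

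The promoters of Igtp and Irf1 are shown because both genes were called higher and hold TTCNNNGAA near the start. Of 29 interferon-stimulated genes with a window, 9 (31%) hold it, namely 3 of the 10 that were higher in liver and 6 of the 19 that were not, against 8.39% of all windows. TTCNNTTTC, the spacing bound by interferon regulatory factors, occurs in 18 of the 29 (62.1%) and in 8.85% of all windows, in 7 of the 10 higher and 11 of the 19 others. The windows are 150 bases before the start, chr11:58199406-58199555 and chr11:53769864-53770013, both on the plus strand, with TTCNNNGAA in capitals.
Igtp: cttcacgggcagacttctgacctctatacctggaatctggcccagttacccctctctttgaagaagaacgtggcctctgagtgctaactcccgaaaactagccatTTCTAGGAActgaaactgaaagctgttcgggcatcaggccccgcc
Irf1: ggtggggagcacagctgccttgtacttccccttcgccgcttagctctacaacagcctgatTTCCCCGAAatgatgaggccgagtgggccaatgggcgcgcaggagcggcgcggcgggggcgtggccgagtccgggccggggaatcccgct

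MHC class I genes, which interferon-γ also induces, included several that were higher. Of 19 tested, 8 were higher and 1 lower, with a median of 0.27. H2-Q7 stood at 699 and 646 CPM in liver and 327 and 276 CPM in spleen (log2 fold change 1.16, SE 0.13, edgeR adjusted p = 1.5e-07), and H2-Q6 at 167 and 148 against 80.02 and 73.03 CPM (log2 fold change 1.04, SE 0.12, edgeR adjusted p = 9.2e-08). Of the classical heavy chains, H2-K1 rose (2158 and 2126 CPM in liver and 1534 and 1344 CPM in spleen, log2 fold change 0.57, SE 0.14, edgeR adjusted p = 0.0028; adjusted p = 0.092 without spleen replicate 2) while H2-D1 was not called (log2 fold change -0.20, SE 0.15), nor was the light chain B2m (log2 fold change -0.08, SE 0.17). Sequences of the Qa loci are alike, so that reads may be divided among them. The transactivator Nlrc5 rose (27.9 and 30.3 CPM in liver and 11.98 and 9.18 CPM in spleen, log2 fold change 1.45, SE 0.19, edgeR adjusted p = 8.7e-07), as did the peptide transporter Tap1 (139 and 137 against 84.3 and 71.8 CPM, log2 fold change 0.82, SE 0.12, edgeR adjusted p = 5.3e-06). Cd1d1, whose product presents lipids to iNKT cells, was lower, at 15.01 and 15.4 CPM in liver and 29.7 and 24.7 CPM in spleen (log2 fold change -0.84, SE 0.16, edgeR adjusted p = 0.00024).

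Several genes of T cell receptor signalling were higher in liver. Of 33 tested, 12 were higher and 2 lower (1 without liver replicate 2 and 0 without any other library), with a median of 0.24. None of the 5 receptor genes was higher. Cd3e stood at 420.1 and 542 CPM in liver and 683 and 664 CPM in spleen (log2 fold change -0.49, SE 0.14, edgeR adjusted p = 0.0079), with adjusted p = 0.20 without liver replicate 1, 0.062 without spleen replicate 1 and 0.054 without spleen replicate 2. Rasgrp1, which links the receptor to Ras, stood at 154 and 141 CPM in liver and 71.2 and 79.4 CPM in spleen (log2 fold change 0.97, SE 0.12, edgeR adjusted p = 2.6e-07), and Nfatc1, a calcium-dependent factor, at 59.96 and 58.8 against 32.3 and 31.01 CPM (log2 fold change 0.91, SE 0.13, edgeR adjusted p = 7.8e-06). Of 12 genes listed as regulators that can restrain the receptor, which include the phosphatase Ptprc (CD45) that also activates the pathway, 5 were higher and none lower. The ubiquitin ligase Cblb was one of the 5 (33.7 and 29.96 against 16.6 and 20.2 CPM, log2 fold change 0.80, SE 0.16, edgeR adjusted p = 0.00046). Csk and Ubash3a, also among the 5, lost the call without liver replicate 1. Their log2 fold changes were then 0.26 and 0.61, in place of 0.35 and 0.81. Csk also lost the call without spleen replicate 1 (log2 fold change 0.39) and without spleen replicate 2 (log2 fold change 0.34). Genes that T cells switch on within minutes of stimulation went both ways. Of 11 AP-1 factors, 2 were higher (1 without liver replicate 1 or without spleen replicate 2) and 3 lower. Fos stood at 8.69 and 5.85 CPM in liver and 18.6 and 16.1 CPM in spleen (log2 fold change -1.24, SE 0.19, edgeR adjusted p = 1.0e-05), and Junb at 269 and 282 against 575 and 463 CPM (log2 fold change -0.92, SE 0.14, edgeR adjusted p = 1.8e-05). Of 32 other immediate early and stress genes, 7 were higher and 9 lower (5 lower without liver replicate 1, 4 without spleen replicate 1, and 4 higher without spleen replicate 2). A thin call on each side was lost when a library was left out. Nr4a2, among the 9, rested on 1 and 0 UMIs in liver against 4 and 2 in spleen (edgeR adjusted p = 0.044; 0.075 without liver replicate 1, 0.16 without liver replicate 2, 0.25 without spleen replicate 1 and 0.068 without spleen replicate 2). Dusp4, among the 7, rested on 8 and 2 UMIs in liver against 0 and 0 in spleen (edgeR adjusted p = 0.049; 0.30 without liver replicate 1, 0.16 without spleen replicate 1 and 0.17 without spleen replicate 2). Dusp1, a phosphatase, was lower (50.05 and 36.7 against 99.4 and 80.6 CPM, log2 fold change -1.05, SE 0.15, edgeR adjusted p = 5.9e-06). Irf8 stood at 46.9 and 64.05 CPM in liver and 12.2 and 12.4 CPM in spleen (log2 fold change 2.17, SE 0.17, edgeR adjusted p = 5.1e-11), and Gadd45b at 22.9 and 28.5 against 9.96 and 8.77 CPM (log2 fold change 1.44, SE 0.19, edgeR adjusted p = 1.6e-06). Of 35 NF-κB pathway genes, 10 were higher (6 without spleen replicate 2) and 3 lower (1 without either liver replicate or without spleen replicate 2), with a median of 0.08. Higher were Bcl3 (log2 fold change 1.03, SE 0.20) and the adaptor Traf1 (log2 fold change 0.83, SE 0.14). The costimulatory and inhibitory receptors gave 3 of 20 higher and 7 lower (4 without liver replicate 1, 3 without spleen replicate 1 and 4 without spleen replicate 2), with Tnfrsf1a higher (log2 fold change 1.23, SE 0.16) and the CD40 ligand gene Cd40lg lower (log2 fold change -0.75, SE 0.12).

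Among genes that decide survival, Bcl2 itself differed most. Of 14 Bcl2 family genes, 4 were higher and 1 lower (0 without liver replicate 1 or without spleen replicate 2, 2 without liver replicate 2), with a median of -0.08. Bcl2 (ENSMUSG00000057329, chr1:106538178-106714274), which blocks the mitochondrial path of apoptosis, stood at 535 and 359 CPM in liver and 62.9 and 67.5 CPM in spleen (log2 fold change 2.78, SE 0.16, edgeR adjusted p = 7.7e-11). The related Bcl2l1 (46.7 and 41.3 against 23.8 and 21.6 CPM, log2 fold change 0.96, SE 0.15, edgeR adjusted p = 1.5e-05) and Mcl1 (75.7 and 72.9 against 47.2 and 44.9 CPM, log2 fold change 0.69, SE 0.13, edgeR adjusted p = 0.00012) rose by less. The antagonist Bcl2l11 (Bim) rose alongside, at 60.4 and 51.996 CPM in liver and 26.2 and 27.1 CPM in spleen (log2 fold change 1.08, SE 0.14, edgeR adjusted p = 1.2e-06). Liver and spleen libraries did not overlap for any of the 4. The effectors Bax (log2 fold change -0.27, SE 0.11) and Bak1 (log2 fold change 0.28, SE 0.13) were not called.

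Several lineage and T cell transcription factors were lower in liver. Of 44 lineage and T cell factors, 14 were lower and 5 higher (3 higher without spleen replicate 2), with a median of -0.19. Of the 6 factors of immature T cells 3 were lower and none had a fold change above 0. Tcf7, a factor of early T cells, stood at 52.2 and 37.5 CPM in liver and 85.7 and 78.9 CPM in spleen (log2 fold change -0.87, SE 0.13, edgeR adjusted p = 1.6e-05), and Lef1 at 93.5 and 99.6 against 141 and 161 CPM (log2 fold change -0.65, SE 0.12, edgeR adjusted p = 0.00010). Id3, an inhibitor of E proteins, stood at 11.4 and 12.6 CPM in liver and 37.98 and 43.04 CPM in spleen (log2 fold change -1.75, SE 0.18, edgeR adjusted p = 4.1e-08). Ikzf2 (Helios) stood at 101 and 95.7 CPM in liver and 199 and 227 CPM in spleen (log2 fold change -1.12, SE 0.12, edgeR adjusted p = 1.4e-08). Spleen was higher in both libraries for all of these. The iNKT master factor Zbtb16 (PLZF) stood at 67.4 and 55.6 CPM in liver and 53.1 and 52.6 CPM in spleen and was not called (log2 fold change 0.22, SE 0.13, edgeR adjusted p = 0.21). Tbx21 (T-bet), the factor of iNKT1 cells, was higher (78.8 and 95.04 against 68.96 and 55.3 CPM, log2 fold change 0.48, SE 0.13, edgeR adjusted p = 0.0067), with adjusted p = 0.081 without liver replicate 2 and 0.14 without spleen replicate 2.

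Marker lists of iNKT subsets differed as well. Of 8 iNKT1 markers 4 were higher (2 without spleen replicate 2) and none lower. Of 8 iNKT2 markers 1 was higher and 5 lower (2 without liver replicate 1 or without spleen replicate 1 and 3 without liver replicate 2 or without spleen replicate 2). Of 8 iNKT17 markers 3 were higher and 4 lower (2 without liver replicate 1 or without spleen replicate 1). Of 7 markers of recent thymic emigrants 5 were lower and none higher. The iNKT17 list did not move as one, since Tmem176b (80.3 and 98.3 against 21.2 and 20.2 CPM, log2 fold change 2.10, SE 0.14, edgeR adjusted p = 5.4e-13) and Tmem176a (log2 fold change 1.71, SE 0.16) rose while Il23r (log2 fold change -2.00, SE 0.56, edgeR adjusted p = 0.0092; adjusted p = 0.12 without liver replicate 1 and 0.12 without spleen replicate 1) fell. The part of subset proportions in the differences between organs was not tested.

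Of 7 homing and egress genes, 4 were lower in liver and none higher, with a median of -1.08, the lowest of the 46 lists. S1pr4 (log2 fold change 0.22, SE 0.12), Arhgef18 (log2 fold change 0.30, SE 0.21) and Fam65b (log2 fold change -0.21, SE 0.13) were not called. Klf2, the factor that switches on egress receptors, stood at 111 and 96.99 CPM in liver and 244 and 224 CPM in spleen (log2 fold change -1.17, SE 0.12, edgeR adjusted p = 1.1e-08). Its target S1pr1, the receptor by which lymphocytes leave lymphoid organs, stood at 17.4 and 18.8 CPM in liver and 37.1 and 39.4 CPM in spleen (log2 fold change -1.08, SE 0.15, edgeR adjusted p = 2.3e-06). Ccr7, which guides T cells into lymph nodes, stood at 6.80 and 6.89 CPM in liver and 22.3 and 21.6 CPM in spleen (log2 fold change -1.68, SE 0.20, edgeR adjusted p = 2.1e-07). Both spleen libraries lay above both liver libraries for each of these genes. Of 18 genes linked to tissue residency, 7 were higher and 2 lower (0 without liver replicate 1 or without spleen replicate 2), with a median of 0.46. The collagen-binding integrin gene Itga1 (CD49a) stood at 10.8 and 8.72 CPM in liver and 1.47 and 2.45 CPM in spleen (log2 fold change 2.32, SE 0.36, edgeR adjusted p = 1.2e-05), and the purine receptor P2rx7 at 83.8 and 93.3 against 55.3 and 43.2 CPM (log2 fold change 0.84, SE 0.14, edgeR adjusted p = 4.7e-05). Cxcr6, the receptor linked to patrol of liver sinusoids, was lower in liver, at 855 and 1177 CPM against 1400 and 1495 CPM (log2 fold change -0.51, SE 0.15, edgeR adjusted p = 0.012), with adjusted p = 0.30 without liver replicate 1 and 0.13 without spleen replicate 2. Genes of extracellular nucleotides, which include P2rx7, gave 6 of 10 higher (3 without liver replicate 1) and 2 lower (0 without liver replicate 1 or without spleen replicate 2, 1 without liver replicate 2 or without spleen replicate 1). Among the higher were the ectoenzymes Cd38 (40.2 and 41.2 against 21.8 and 15.7 CPM, log2 fold change 1.11, SE 0.16, edgeR adjusted p = 5.7e-06) and Entpd1 (18.8 and 18.7 against 8.48 and 6.73 CPM, log2 fold change 1.29, SE 0.23, edgeR adjusted p = 6.9e-05).

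Glucocorticoid-responsive genes gave 5 of 12 higher and 1 lower, with a median of 0.45, and 3 higher without liver replicate 1 or without spleen replicate 2. Txnip, an inhibitor of thioredoxin and glucose uptake, stood at 201 and 149 CPM in liver and 56.8 and 49.98 CPM in spleen (log2 fold change 1.71, SE 0.14, edgeR adjusted p = 1.5e-10). Tsc22d3 (GILZ) stood at 58.5 and 45.9 CPM in liver and 18.4 and 18.97 CPM in spleen and was not called (log2 fold change 1.48, SE 0.47, edgeR adjusted p = 0.11), although both liver libraries were above both spleen libraries. The receptor gene Nr3c1 was not called (log2 fold change 0.18, SE 0.12).

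Of 6 nuclear noncoding RNAs tested, 1 was higher and 1 lower (0 without spleen replicate 2, 2 without spleen replicate 1). Malat1, an abundant RNA of the nucleus, stood at 26529 and 25256 CPM in liver and 25609 and 28077 CPM in spleen and overlapped between organs (log2 fold change -0.05, SE 0.18, edgeR adjusted p = 0.86). Neat1, the scaffold RNA of paraspeckles, rose (49.5 and 49.4 against 31.9 and 24.1 CPM, log2 fold change 0.82, SE 0.14, edgeR adjusted p = 7.8e-05). The 3 transcripts that cover a ribosomal RNA repeat were higher in liver. Gm42418 stood at 288 and 207 CPM in liver and 63.6 and 53.4 CPM in spleen (log2 fold change 2.08, SE 0.15, edgeR adjusted p = 1.7e-09), AY036118, which lies within it and may share reads with it, at 149 and 114 against 12.9 and 14.7 CPM (log2 fold change 3.26, SE 0.16, edgeR adjusted p = 1.8e-16), and Gm26917 at 731 and 638 against 332 and 242 CPM (log2 fold change 1.25, SE 0.17, edgeR adjusted p = 3.3e-05). Of 48 splicing factors, 5 were higher and 13 lower, with a median of -0.10. The most negative was U2af1, which recognises the 3′ splice site (207 and 284 CPM in liver and 404 and 481 CPM in spleen, log2 fold change -0.85, SE 0.14, edgeR adjusted p = 3.5e-05). The 5 higher calls fell to 3 without liver replicate 2, and the 13 lower calls fell to 5 without liver replicate 1 and to 2 without spleen replicate 2.

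**Figure D5:**
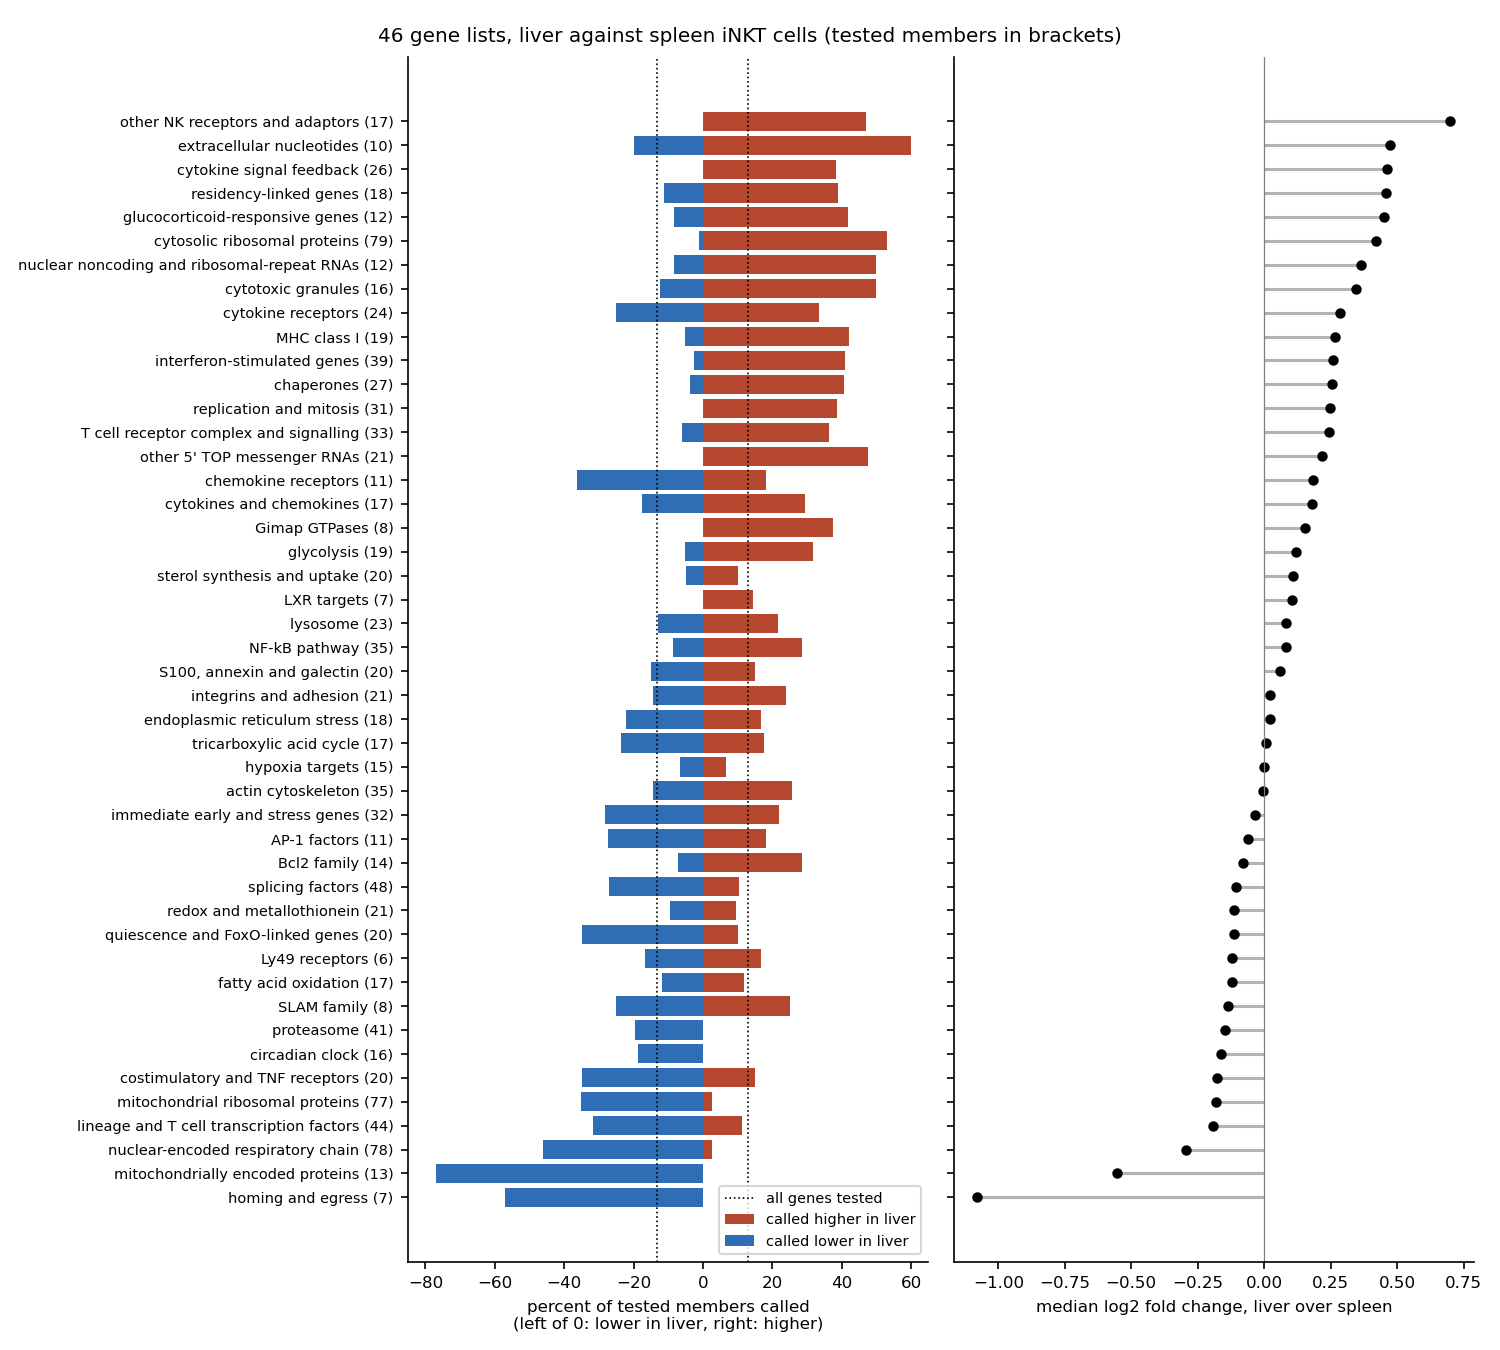
For each of 46 gene lists, the left panel gives the percent of tested members called higher (red) or lower (blue) in liver, with the shares over all genes as dotted lines, and the right panel the median log2 fold change. Homing, mitochondrially encoded and nuclear respiratory genes lie at the low end and NK receptors, nucleotide genes and cytokine feedback at the high end, while many lists hold members called in both directions.

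Across the 46 lists, the medians ran from -1.08 (homing and egress) to 0.70 (NK receptors and adaptors). Lists with few calls included redox genes (2 higher and 2 lower of 21, 1 lower without liver replicate 1) and sterol synthesis and uptake (2 higher and 1 lower of 20). The sterol calls were 1 higher and 0 lower without liver replicate 1 or without spleen replicate 2, and 3 were lower without liver replicate 2. Of 16 circadian clock genes 3 were lower, 1 without liver replicate 1, without liver replicate 2 or without spleen replicate 2 and 0 without spleen replicate 1.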

How the data were processed

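The deposited values were whole-number UMI counts per gene and cell barcode in 10x matrices, which the authors made from 3′ single-cell libraries with Cell Ranger 3.1.0 and mm10, per the submitters' processing notes. The matrices list 27998 genes. The labels give the molecule as nuclear RNA, and what this means for sorted cells was not resolved.

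The UMIs of each library's kept cells were summed (Python 3.11.15, pandas 2.3.3, numpy 2.4.6, scipy 1.17.1) and fitted with edgeR 4.0.16 (R 4.3.3, limma 3.58.1). Genes passed filterByExpr at a minimum count of 10, libraries were scaled by TMM, and the robust quasi-likelihood model had a term for organ over all 6 libraries, the 2 lymph node libraries entering the spread, the scaling and the filter. Liver minus spleen was tested two-sided, with p-values adjusted over all 10314 genes at 0.05. Doublets were not called, and a run without the 2% of cells with most genes stood in for it. Intervals cover counting error only.

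The members, the 46 gene lists and 14 marker lists were chosen with earlier results of these data known. Of 1230 listed symbols, 1213 were in the files and 1097 were tested, and the T cell receptor constant genes were not analysed here. Named were, per list, the 3 most positive and 3 most negative called genes with a mean of at least 10 CPM in an organ, for genes in no list the 12 most positive and 12 most negative with at least 20 CPM, and members with a defining role. Only some of these are printed, and a few genes are not reported here. Replicate numbers were shared between organs, but deviations of same-numbered liver and spleen libraries correlated at r = 0.091 over genes, so that the numbers were not taken as pairs. Gene positions and promoters came from GENCODE vM21 and RefSeq (GRCm38.p6). The script was tested on simulated data. DESeq2 1.42.0 and 14 other settings served as alternatives.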

Additional observations from a re-analysis of the deposited data

How the results depend on the processing

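The edgeR test called 2699 genes (1342 higher and 1357 lower in liver), and DESeq2 called 1486 of all genes tested, with 648 higher and 838 lower. Leaving out each library in turn gave 1378 to 2413 calls, 742 to 1224 higher and 636 to 1189 lower. The count of ribosomal protein genes called higher, 42 with all libraries, ranged from 17 to 36. That of mitochondrially encoded genes called lower, 10 with all libraries, ranged from 5 to 8, and that of nuclear-encoded respiratory chain genes called lower, 36 with all libraries, ranged from 2 to 34. With cells of at most 5% mt- UMIs, 5 mitochondrially encoded genes were called lower and their share differed by -1.16 percentage points. With the replicate block, 3112 genes were called, and the numbers were shared without a sign of pairing (r = 0.091, 0.086 and 0.068 for the 3 pairs of organs). Of 213 called genes that the naming rule picked, 29 lost the call with DESeq2, 20 with cells of at most 5% mt- UMIs, 14 with thinned libraries, and 44, 15, 15 and 50 without liver replicate 1, liver replicate 2, spleen replicate 1 and spleen replicate 2. None of these 213 changed direction in any of the 15 settings that gave it a value, whereas Ifit1, Ifit3, Klrd1 and Stat5b, which were not called, changed sign in some settings. The cause of these losses was not tested. Scaling by library totals made 44.67% of calls higher in place of 49.72%, and the median over all genes ran from -0.01 to 0.04 across settings.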

Other observations

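Genes of cell division were described by a list of replication and mitosis genes, of which 12 of 31 were called higher in liver and none lower, with a median log2 fold change of 0.25. Of 17 mitosis genes 10 were higher, and of 14 replication genes 2. Ccna2, a cyclin of S and G2 phase, stood at 20.7 and 26.5 CPM in liver and 7.74 and 14.1 CPM in spleen (log2 fold change 1.12, SE 0.25, edgeR adjusted p = 0.0023). The count was 3 without cells that held transcripts of other cell types, 2 with cells of at most 5% mt- UMIs, 6 with DESeq2, 4 without liver replicate 2 and 6 without spleen replicate 1.

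Genes in none of the lists included some of the largest differences. Mmp9, a secreted gelatinase, stood at 60.2 and 45.9 CPM in liver and 7.56 and 10.6 CPM in spleen (log2 fold change 2.56, SE 0.19, edgeR adjusted p = 3.1e-11). Fgl2, a fibrinogen-like protein that T cells secrete, stood at 162 and 139.7 CPM in liver and 34.8 and 33.05 CPM in spleen (log2 fold change 2.15, SE 0.13, edgeR adjusted p = 5.7e-14). Ly6c2, a surface antigen of memory T cells, stood at 792 and 916 against 277 and 263 CPM (log2 fold change 1.66, SE 0.13, edgeR adjusted p = 3.1e-11). Lower in liver were Notch2, a receptor of the Notch family, at 26.7 and 33.1 against 68.03 and 71.4 CPM (log2 fold change -1.23, SE 0.13, edgeR adjusted p = 2.6e-08), and the linker histone gene Hist1h1e at 11.8 and 12.4 against 30.8 and 26.9 CPM (log2 fold change -1.26, SE 0.19, edgeR adjusted p = 7.6e-06). No organ overlapped the other for these 5 genes.

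Haemoglobin transcripts were found in the liver libraries. Hbb-bs held 4080 UMIs in liver and 2 in spleen, a ratio of 1071 after division by library totals (exact 95% counting interval 296 to 8846). Hbb-bt stood at 30.2 and 47.9 CPM in liver and 0 CPM in spleen and was called higher (edgeR adjusted p = 9.4e-08). Hba-a1 held 2322 UMIs in liver and 0 in spleen and was not called (edgeR adjusted p = 0.15). Its liver libraries stood at 82.9 and 166 CPM.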
